A study of Homo sapiens with 9 samples.

Results

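The 9 genes described here encode subunits of Polycomb repressive complex 1 (PRC1): RING1, RNF2, BMI1, PCGF1, CBX2, CBX8, PHC2, SCMH1 and L3MBTL2. They were chosen by name and matched by symbol to the Ensembl identifiers of the count table. All 9 were found among its 57905 genes, and all 9 were among the 13252 genes with enough counts to test. RNA was sequenced from KYSE180, an established human line of esophageal squamous cell carcinoma, called KDM6A-deficient in the series title. KDM6A is a demethylase of H3K27me3, the histone mark written by EZH2. There were 3 groups of 3 libraries, all from cells given 6 Gy of ionizing radiation: cells with a control hairpin against luciferase (shluc), and cells carrying 1 of 2 EZH2 hairpins (shEZH2#1 or shEZH2#3). The shluc libraries are labelled wild type for EZH2; a label of the hairpin libraries speaks of a knockout, whereas the titles name hairpins, which were followed here. The labels do not say whether replicates were separate cultures or whether a line was 1 clone, so the p-values rest on a spread between libraries that may be purely technical.

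Polycomb proteins keep developmental genes silent through chemical marks on histones. PRC1 is an E3 ligase that puts ubiquitin on histone H2A; its catalytic core pairs a RING subunit, RING1 or RNF2 (also called RING1B), with a PCGF subunit such as BMI1 or PCGF1. In canonical PRC1 a CBX subunit, for example CBX2 or CBX8, binds the H3K27me3 mark left by PRC2, whose methyltransferase is EZH2, and a PHC subunit links complexes through its SAM domain. Variant complexes lack the CBX reader of that mark and reach chromatin by other proteins: PCGF1 works beside KDM2B, which binds CpG islands, and L3MBTL2 is an MBT domain protein of the variant complex built on PCGF6.

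The starts of 2 pairs of coding sequences are shown because the members differed widely in base composition. The measured changes, described further on, ran along the GC content of the whole transcript, with CBX8 as an exception. They were not compared with the last codon base. Each line gives the first 120 bases of the coding sequence of the longest protein-coding GENCODE 29 transcript on GRCh38, 5′ to 3′, with capitals marking G or C at the last base of a codon.
RING1: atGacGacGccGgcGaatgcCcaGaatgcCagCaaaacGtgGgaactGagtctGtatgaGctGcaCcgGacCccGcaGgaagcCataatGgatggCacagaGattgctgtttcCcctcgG
RNF2: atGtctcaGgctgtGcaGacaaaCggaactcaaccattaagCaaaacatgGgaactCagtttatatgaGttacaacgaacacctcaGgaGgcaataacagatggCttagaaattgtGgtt
PCGF1: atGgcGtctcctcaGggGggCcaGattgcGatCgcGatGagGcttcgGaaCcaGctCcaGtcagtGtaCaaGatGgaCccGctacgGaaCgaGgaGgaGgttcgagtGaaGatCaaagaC
BMI1: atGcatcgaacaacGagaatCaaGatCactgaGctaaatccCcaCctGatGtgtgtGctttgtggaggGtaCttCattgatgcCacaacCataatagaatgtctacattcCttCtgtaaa
Of the 40 codons printed, 26 ended in G or C in RING1 against 13 in RNF2, its paralog. The PCGF paralogs differed in the same way, with 31 in PCGF1 and 18 in BMI1. Over the whole coding sequence, G or C made up 37.4% of last codon bases in RNF2 and 36.4% in BMI1, near the low end of 18813 genes (percentiles 10.5 and 9.0). The other 7 members lay between 61.9% in SCMH1 and 79.9% in CBX2, above the median gene at 60.4%.

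Promoter windows of RefSeq (GRCh38.p14, 250 bases before to 50 after each annotated start) were given for 7 of the 9 members; CBX2 and CBX8 had none. For the members with a window that rose with at least 1 hairpin, and for BMI1 beside them, 120 bases free of annotated exons are printed 5′ to 3′ on the gene's strand, with CG dinucleotides in capitals. The stretches are chr6:33208375-33208494 (RING1, plus strand), chr1:33431096-33431215 (PHC2, minus strand), chr22:41205085-41205204 (L3MBTL2, plus strand) and chr10:22320979-22321098 (BMI1, plus strand).
RING1 promoter: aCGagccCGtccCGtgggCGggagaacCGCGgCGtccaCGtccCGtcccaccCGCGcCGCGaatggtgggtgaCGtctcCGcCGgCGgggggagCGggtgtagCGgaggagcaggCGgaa
PHC2 promoter: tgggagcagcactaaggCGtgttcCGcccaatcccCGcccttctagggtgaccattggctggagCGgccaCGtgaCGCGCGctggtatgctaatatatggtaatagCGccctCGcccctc
L3MBTL2 promoter: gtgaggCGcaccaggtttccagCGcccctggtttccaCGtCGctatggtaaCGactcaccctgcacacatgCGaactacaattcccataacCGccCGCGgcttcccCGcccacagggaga
BMI1 promoter: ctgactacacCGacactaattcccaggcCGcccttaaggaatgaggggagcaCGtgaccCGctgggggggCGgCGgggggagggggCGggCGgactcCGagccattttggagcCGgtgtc
The 300-base windows of these members, 9 in all because BMI1 and PHC2 have 2 each, were 59.7 to 91.0% G or C, against a median of 58.7% over 35116 windows. The window of RNF2, a gene of low coding GC, was 73.0% G or C with 41 CG dinucleotides, the same number as in RING1. On either strand, GGGCGG occurred in all 9 windows and in 45.0% of all windows. CCAAT, found in 34.6% of all windows, occurred in L3MBTL2 and the first window of PHC2. CACGTG, found in 7.3%, occurred in the first windows of BMI1 and PHC2. Among members with a window, CCAAT occurred only in ones that rose, but RING1 rose and lacked it. GGGCGG and CACGTG occurred both in members that rose and in members that did not. These matches are descriptions of letters only, in too few genes to be read further.

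EZH2, the hairpins' target (ENSG00000106462, GRCh38 chromosome 7, 148807383 to 148884321), was measured at 19.3 ± 0.890 CPM (counts scaled to a common library total by TMM; SD, n = 3) in shluc, 10.1 ± 2.41 in shEZH2#1 and 9.94 ± 0.989 in shEZH2#3. Every hairpin library lay below every shluc library. The mean log2 fold change of both hairpins was -0.95 ± 0.15 (SE, adjusted p = 0.000291), which leaves 51.8% of the control level, so the comparisons below concern a partial loss of EZH2 RNA. With an offset for GC content and length, described further on, the loss was smaller but still called. It was then -0.77 with shEZH2#1 (adjusted p = 0.00251), -0.60 with shEZH2#3 (adjusted p = 0.00802) and -0.69 for the mean (adjusted p = 0.00193). Library totals ran from 14958011 to 21152006 estimated counts, so that 1 count was worth 0.0399 to 0.0735 CPM. Libraries of 1 group differed by more than counting noise, so none was a copy of another. Pairwise chi-square values per degree of freedom were 61.5 and 76.9 for the pairs with shEZH2#3 replicate 1 against 18.5 for the other pair of that group, and 29.2 and 56.4 for the pairs with shluc replicate 2 against 22.8. Of 8 squamous epithelial markers, 3 exceeded 1 CPM on average (KRT17, SFN and CDH1) and KRT5, KRT14, KRT6A, TP63 and DSG3 stayed at or below 1.03 CPM in each library. The summed squamous markers were 1290 to 1811 CPM in the controls, 2074 to 2446 under shEZH2#1 and 1763 to 1982 under shEZH2#3. Of 6 fibroblast markers 4 exceeded 1 CPM on average, with COL1A2 at 0, and their sum was 59.5 to 68.3 CPM in the controls, 53.9 to 62.4 under shEZH2#1 and 79.5 to 118.2 under shEZH2#3. Of 6 immune markers 2 did, with PTPRC and CD3E at 0 (sums 18.7 to 22.2, 16.4 to 20.3 and 25.4 to 30.7 CPM). Of 3 endothelial markers found, 1 did, with KDR at 0 (sums 13.8 to 19.8, 7.97 to 8.29 and 28.4 to 32.7 CPM). The part of these shifts in the results below was not tested, and in bulk RNA fewer cells of a type and less RNA per cell cannot be told apart.

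Against shluc, 4 members rose with shEZH2#3: RING1, CBX2, PHC2 and L3MBTL2. CBX2 and L3MBTL2 also rose with shEZH2#1, and no member fell with either hairpin. The rises came to between 139.6 and 163.3% of the control level. With an offset for the GC content and length of transcripts, described further on, 0 of 9 members were called with shEZH2#3, while CBX2 and L3MBTL2 kept their call with shEZH2#1. BMI1 and RNF2, the members with the fewest counts, had negative estimates with both hairpins that did not pass the test. PCGF1, CBX8 and SCMH1 did not pass with either.

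Calls rest on edgeR's quasi-likelihood test at an adjusted p below 0.05 (Benjamini-Hochberg over all tested genes). With shEZH2#1, 2 of 9 members were called higher (22.2%), where 19.0% of all tested genes were called in either direction, 11.2% higher and 7.89% lower. With shEZH2#3 the members' share was 4 of 9 (44.4%), where 44.2% of genes were called, 24.4% higher and 19.8% lower. Called with both hairpins in the same direction were 2 of 9 members, against 11.3% of genes (7.99% higher and 3.26% lower). The mean of both hairpins called 4 of 9, the same genes as shEZH2#3, where 36.3% of genes were called and 19.6% were higher. For each hairpin alone, the members' share called in either direction is close to that of all genes and is not a result about PRC1. All calls of members were higher, and the shares called higher, 22.2 and 44.4%, exceed the 11.2 and 24.4% of all genes, but they rest on 2 and 4 of 9 genes and no test was made of them. The median log2 fold change over the 9 members was 0.24 with shEZH2#1 and 0.46 with shEZH2#3, beside -0.07 and -0.01 over all genes. Both hairpins were compared with the same 3 control libraries, so their values below stand side by side and are not independent of each other. The balance of calls over all genes moved with the scaling: 55.2% of the calls with shEZH2#3 were higher under TMM and 39.4% under upper quartile scaling, while shEZH2#1 gave 58.6% under TMM and 68.6% without 2 abundant genes that have no symbol, and 45.6% with an offset for GC content and length.

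**Figure D1:**
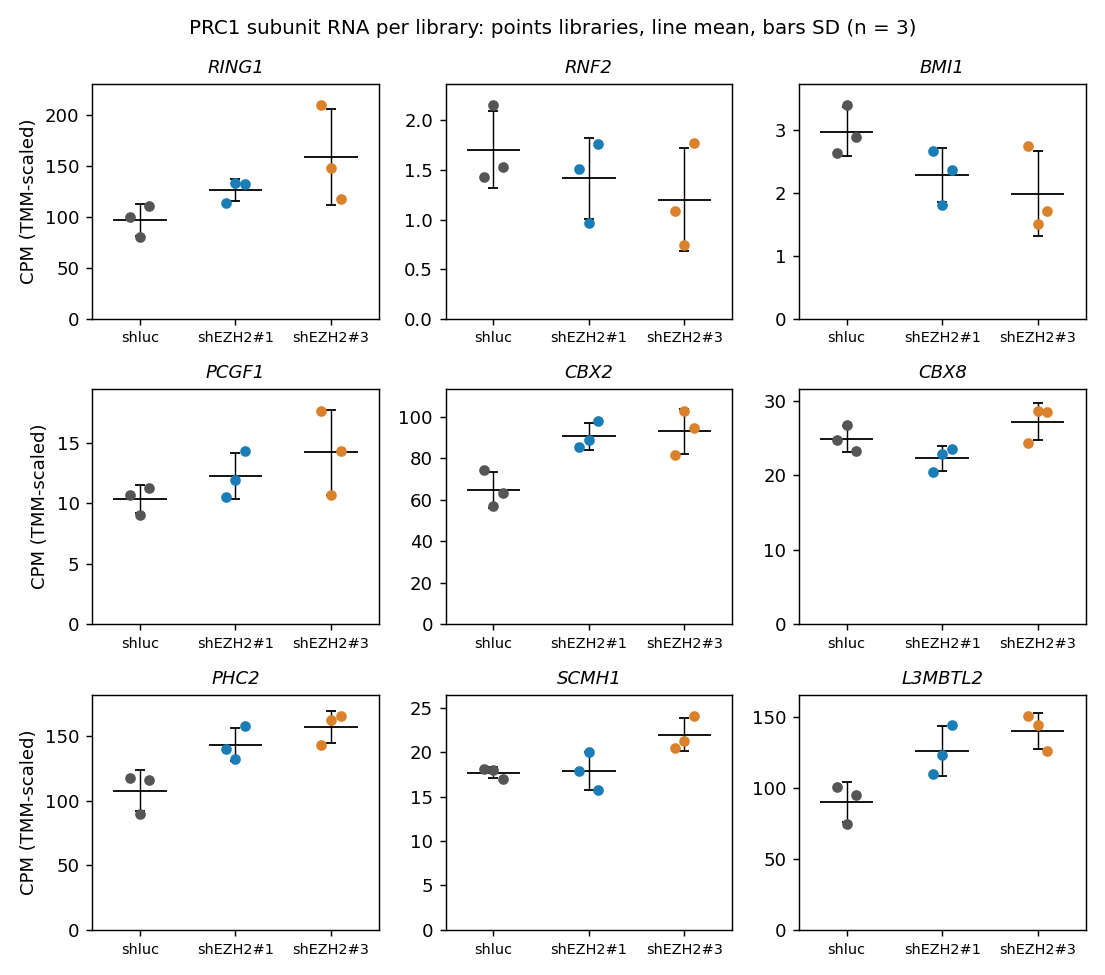
CPM (TMM-scaled, linear axis from 0) of each PRC1 subunit in the 9 libraries, by hairpin; points are libraries in replicate order, lines are group means and bars are SD (n = 3). RING1, CBX2, PHC2 and L3MBTL2 lie higher in all 6 EZH2 hairpin libraries than in any shluc library, whereas the points of RNF2, BMI1 and PCGF1 overlap between groups.

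Among the catalytic subunits, RING1 rose and RNF2 did not pass the test. RING1 (ENSG00000204227, chromosome 6, 33208495 to 33212722) stood at 100.1, 80.6 and 110.9 CPM in shluc, at 113.8, 133.8 and 132.1 with shEZH2#1, and at 210.2, 148.1 and 117.7 with shEZH2#3. All 6 hairpin libraries lay above the 3 controls, but the shEZH2#3 libraries were spread widely, replicate 1 being the highest. For RING1 the log2 fold change was 0.71 ± 0.19 under shEZH2#3 (SE, adjusted p = 0.00542), against 0.38 ± 0.19 with shEZH2#1 (adjusted p = 0.162). The call with shEZH2#3 was lost when shluc replicate 2 and shEZH2#3 replicate 1, a pair that stood apart from their groups, were left out together (0.33, adjusted p = 0.0754; left out after seeing the data). The mean of both hairpins, 0.55 ± 0.17 (adjusted p = 0.0151), was lost without shluc replicate 2 alone (0.42, adjusted p = 0.114). With the GC and length offset RING1 stood at 0.13 under shEZH2#3 (adjusted p = 0.568).

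RNF2 (ENSG00000121481, chromosome 1, 185045364 to 185102608) encodes RING1B, the other RING finger ligase. It was the scarcest member, with 12 to 54 counts in a library. Its CPM values were 1.43, 2.15 and 1.53 for the controls, 1.51, 0.966 and 1.76 under shEZH2#1, and 1.09, 0.748 and 1.77 under shEZH2#3. The 3 groups overlapped. On the log2 scale RNF2 had an estimate of -0.28 with shEZH2#1 (95% interval -1.10 to 0.54, adjusted p = 0.654) and -0.50 with shEZH2#3 (-1.32 to 0.32, adjusted p = 0.302), intervals that at this depth hold a large fall as well as a rise.

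PCGF subunits pair with the RING proteins and give each PRC1 its type. Neither PCGF subunit among the members, BMI1 or PCGF1, passed the test. Outside the members and without an offset, PCGF3 was called lower with shEZH2#3 (-0.49, adjusted p = 0.0367). PCGF5 was called between the hairpins, shEZH2#1 minus shEZH2#3 (-0.51, adjusted p = 0.0462). BMI1 (ENSG00000168283, chromosome 10, 22321211 to 22331484), the PCGF subunit of many canonical complexes, had 2.63, 3.39 and 2.88 CPM in the control libraries, 2.66, 1.81 and 2.35 under shEZH2#1 and 2.75, 1.496 and 1.71 under shEZH2#3. Replicate 1 of each hairpin fell inside the control range and the other replicates below it. For shEZH2#1 the log2 fold change of BMI1 came to -0.38 ± 0.30 (adjusted p = 0.391), and for shEZH2#3 to -0.58 ± 0.30 (adjusted p = 0.121); without shEZH2#3 replicate 1 the latter was -0.88 (adjusted p = 0.0383). Reads of BMI1 are uncertain, since the read-through gene COMMD3-BMI1 lies over 23.4% of its exon bases on the same strand. That gene was counted at 0 to 39.4 per library, with 0 in shluc replicate 2 and in a shEZH2#3 library. Summing both genes, a step added after seeing the data, gave -0.15 for shEZH2#1 (adjusted p = 0.784), and -0.47 for shEZH2#3 (adjusted p = 0.239).

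PCGF1 (ENSG00000115289, chromosome 2, 74505043 to 74508580), the partner in the KDM2B complex, had 10.7, 9.05 and 11.3 CPM in the control libraries, 10.5, 11.9 and 14.3 under shEZH2#1 and 17.7, 10.7 and 14.3 under shEZH2#3. At least 1 library of each hairpin lay within the control range. PCGF1 had a log2 fold change of 0.24 (95% interval -0.16 to 0.65, adjusted p = 0.408) with shEZH2#1 and 0.46 (0.06 to 0.86, adjusted p = 0.0581) with shEZH2#3. Without shEZH2#3 replicate 2 the latter became 0.63 (adjusted p = 0.0216).

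Of the chromodomain subunits, CBX2 rose with both hairpins and its neighbour CBX8 passed with neither. CBX2 (ENSG00000173894, chromosome 17, 79778132 to 79787983, plus strand) had 74.4, 57.1 and 63.4 CPM in the control libraries, 85.3, 88.7 and 98.0 under shEZH2#1 and 81.5, 103.1 and 94.5 under shEZH2#3. Both hairpin groups lay wholly above the controls. The log2 fold changes were 0.48 ± 0.15 (adjusted p = 0.0301) and 0.52 ± 0.15 (adjusted p = 0.00962). The shEZH2#1 call did not hold when shluc replicate 2 (0.39, adjusted p = 0.0869), shluc replicate 3 (0.46, 0.0523), shEZH2#1 replicate 2 (0.50, 0.0923) or shEZH2#1 replicate 3 (0.42, 0.145) was left out, and the shEZH2#3 call did not hold without shEZH2#3 replicate 2 (0.44, 0.0575). With the GC and length offset the shEZH2#3 value of CBX2 was 0.03 (adjusted p = 0.815).

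CBX8 (ENSG00000141570, chromosome 17, 79792132 to 79801683, minus strand) reads the same mark through a closely related chromodomain. Its values were 24.8, 26.7 and 23.2 CPM in the control libraries, 20.4, 22.9 and 23.5 under shEZH2#1 and 24.3, 28.7 and 28.5 under shEZH2#3. Each hairpin group overlapped the controls. CBX8 had a log2 fold change of -0.16 (95% interval -0.48 to 0.15, adjusted p = 0.477) with shEZH2#1 and 0.12 (-0.19 to 0.43, adjusted p = 0.507) with shEZH2#3.

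The CBX2 to CBX8 ratio of counts within a library needs no scaling between libraries. The controls had 3.00, 2.14 and 2.73, shEZH2#1 had 4.18, 3.88 and 4.17, and shEZH2#3 had 3.35, 3.60 and 3.31. The 3 groups did not overlap, with means of 2.62 ± 0.44, 4.08 ± 0.17 and 3.42 ± 0.16 (SD, n = 3). The ratio was picked after the values of both genes were seen and carries no test.

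**Figure D2:**
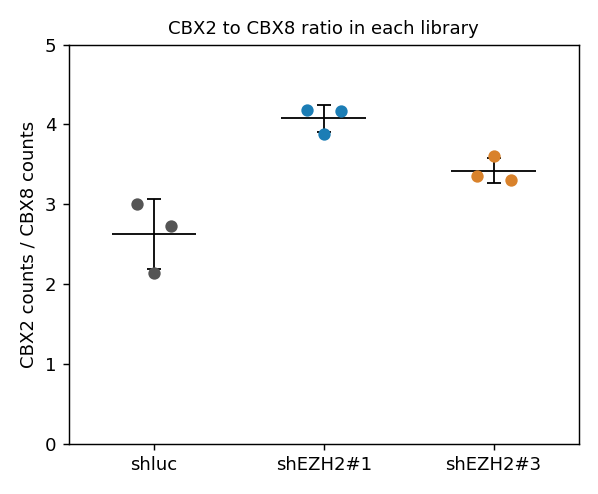
Counts of CBX2 divided by counts of CBX8 in each library (linear axis from 0), by hairpin; points are libraries, lines are means and bars are SD (n = 3). The shluc libraries reach at most 3.00, the shEZH2#3 libraries span 3.31 to 3.60 and the shEZH2#1 libraries 3.88 to 4.18.

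Of the SAM domain subunits, PHC2 rose and SCMH1 did not pass the test. PHC2 (ENSG00000134686, chromosome 1, 33323623 to 33431052), a polyhomeotic protein that clusters canonical PRC1, had 118.0, 89.6 and 115.9 CPM in the control libraries, 140.2, 132.6 and 157.9 under shEZH2#1 and 143.4, 162.4 and 165.7 under shEZH2#3. All 6 hairpin libraries lay above the controls. For PHC2 the log2 fold change was 0.54 ± 0.15 under shEZH2#3 (adjusted p = 0.00782), against 0.41 ± 0.15 under shEZH2#1 (adjusted p = 0.0626). The latter passed under upper quartile scaling, in DESeq2 and without the 2 abundant unnamed genes. The shEZH2#3 call of PHC2 was lost with the GC and length offset (0.04, adjusted p = 0.81).

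SCMH1 (ENSG00000010803, chromosome 1, 41027200 to 41242154), a SAM and MBT domain protein found with canonical PRC1, had 18.1, 18.1 and 17.0 CPM in the control libraries, 17.9, 20.0 and 15.8 under shEZH2#1 and 20.5, 21.3 and 24.1 under shEZH2#3. The shEZH2#3 libraries lay above the controls and the shEZH2#1 libraries on both sides of them. SCMH1 had a log2 fold change of 0.02 (95% interval -0.31 to 0.34, adjusted p = 0.959) with shEZH2#1 and 0.31 (-0.01 to 0.63, adjusted p = 0.104) with shEZH2#3.

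L3MBTL2 (ENSG00000100395, chromosome 22, 41205205 to 41231271), which serves the PCGF6 complex, had the largest mean fold change of the 9. It had 100.8, 74.6 and 95.3 CPM in the control libraries, 109.9, 123.1 and 144.9 under shEZH2#1 and 150.9, 144.3 and 126.3 under shEZH2#3. Every hairpin library exceeded every control. L3MBTL2 changed by 0.48 ± 0.16 on the log2 scale for shEZH2#1 (adjusted p = 0.039), and by 0.64 ± 0.16 for shEZH2#3 (adjusted p = 0.00358). The first was lost without shluc replicate 2 (0.35, adjusted p = 0.144), shEZH2#1 replicate 2 (0.50, 0.106) or shEZH2#1 replicate 3 (0.37, 0.211), and without shluc replicate 2 and shEZH2#3 replicate 1 together (0.36, 0.0646). The second was lost with the GC and length offset (0.31, adjusted p = 0.063). An annotated antisense gene covers 14.5% of the L3MBTL2 exon bases, and the strand setting of the counting is not given in the sources used here.

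Counted by ranges, 4 of 9 members lay above the controls in all 3 libraries of shEZH2#1, where 18.3% of genes did. With shEZH2#3 there were 5, where 26.9% of genes did, SCMH1 being the addition. In all 6 hairpin libraries together the 4 were RING1, CBX2, PHC2 and L3MBTL2, where 12.0% of genes lay above. No member lay wholly below the controls, where 18.9%, 26.0% and 9.54% of genes did in these 3 comparisons.

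**Figure D3:**
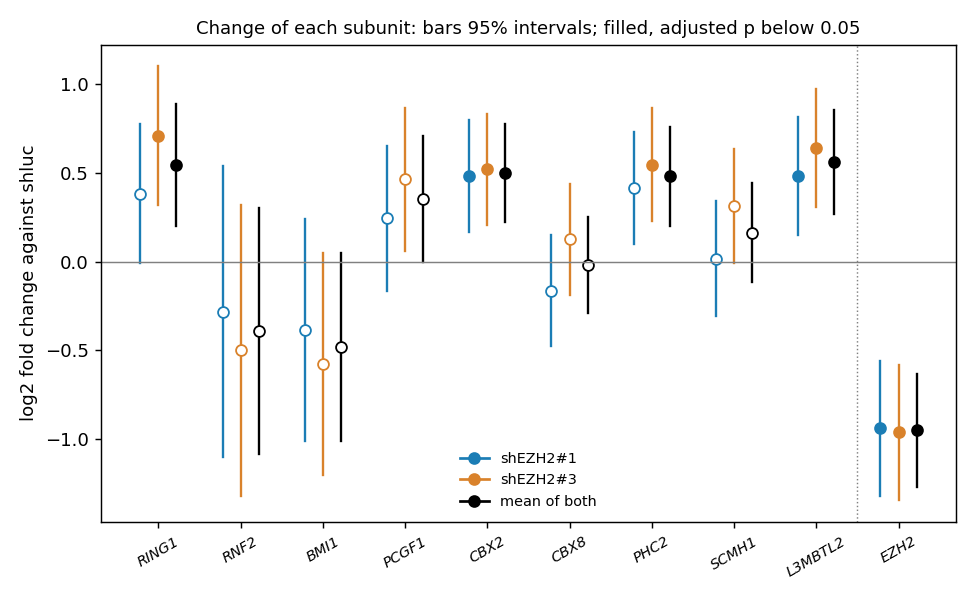
Log2 fold change against shluc of each PRC1 subunit and of EZH2 for shEZH2#1, shEZH2#3 and the mean of both hairpins; bars are 95% intervals and filled points have an adjusted p below 0.05. Filled points appear for RING1, CBX2, PHC2 and L3MBTL2 on the positive side and for EZH2 near -0.95, and the longest bars belong to RNF2 and BMI1.

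Tested directly against each other, the 2 hairpins gave no called member, where 25.0% of all genes were called. By edgeR 0 of 9 members had an unadjusted p below 0.05, and DESeq2 and limma-voom also called 0. The largest difference, shEZH2#1 minus shEZH2#3 on the log2 scale, was -0.33 for RING1 (95% interval -0.72 to 0.06, adjusted p = 0.212). It was -0.30 for SCMH1 (-0.62 to 0.03, adjusted p = 0.172) and -0.29 for CBX8 (-0.60 to 0.03, adjusted p = 0.171), and both of these genes had ranges lower in shEZH2#1 than in shEZH2#3 with no overlap (23.2% of genes did). For CBX2 the difference was -0.04 (-0.35 to 0.28, adjusted p = 0.886). So RING1 and PHC2, called with only 1 hairpin, were not shown to respond differently to them.

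The fold changes of the members ran along their GC content. BMI1 and RNF2, at 39.1 and 38.1% G or C in the transcript, had the most negative mean estimates, and RING1 (61.6%), CBX2 (59.7%), PHC2 (59.7%) and L3MBTL2 (56.2%) the most positive. CBX8 departed from this, at 57.5% G or C and a mean log2 fold change of -0.02. Libraries also differed in this respect over all genes. The Spearman correlation across genes of a library's deviation from the mean level with GC content was from -0.69 to -0.39 for the controls, from -0.25 to 0.25 for shEZH2#1 and from 0.37 to 0.64 for shEZH2#3. The shluc library with the strongest negative trend, replicate 2, held the lowest of all 9 values for RING1, PCGF1, CBX2, PHC2 and L3MBTL2 and the highest for BMI1 and RNF2. The shEZH2#3 library with the strongest positive trend, replicate 2, held the highest value for CBX2 and CBX8 and the lowest for BMI1 and RNF2. The other members did not follow this: RING1, PCGF1 and L3MBTL2 were highest in shEZH2#3 replicate 1, whose trend (0.37) was the weakest of that group. PHC2 and SCMH1 were highest in shEZH2#3 replicate 3.

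With an offset for GC content and transcript length fitted in each library, no member was called with shEZH2#3. The log2 fold change of RING1 went from 0.71 to 0.13 (adjusted p = 0.568), that of CBX2 from 0.52 to 0.03 (0.815), and that of PHC2 from 0.54 to 0.04 (0.81). L3MBTL2 kept 0.31 of 0.64 (adjusted p = 0.063). With shEZH2#1 the calls of CBX2 (0.32, adjusted p = 0.0148) and L3MBTL2 (0.41, adjusted p = 0.0199) held, while RING1 came to -0.02 (adjusted p = 0.946). BMI1 moved to -0.15 with shEZH2#1 and -0.03 with shEZH2#3, and RNF2 to -0.02 and 0.08. CBX8 became more negative, -0.27 (adjusted p = 0.111) and -0.29 (adjusted p = 0.0745). Between the hairpins CBX2 was then called, at 0.29 higher in shEZH2#1 (adjusted p = 0.0179), against -0.04 without the offset. The ranges of the GC trend did not overlap between the 3 groups, so a response of GC-rich transcripts and a difference of library composition cannot be told apart.

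**Figure D4:**
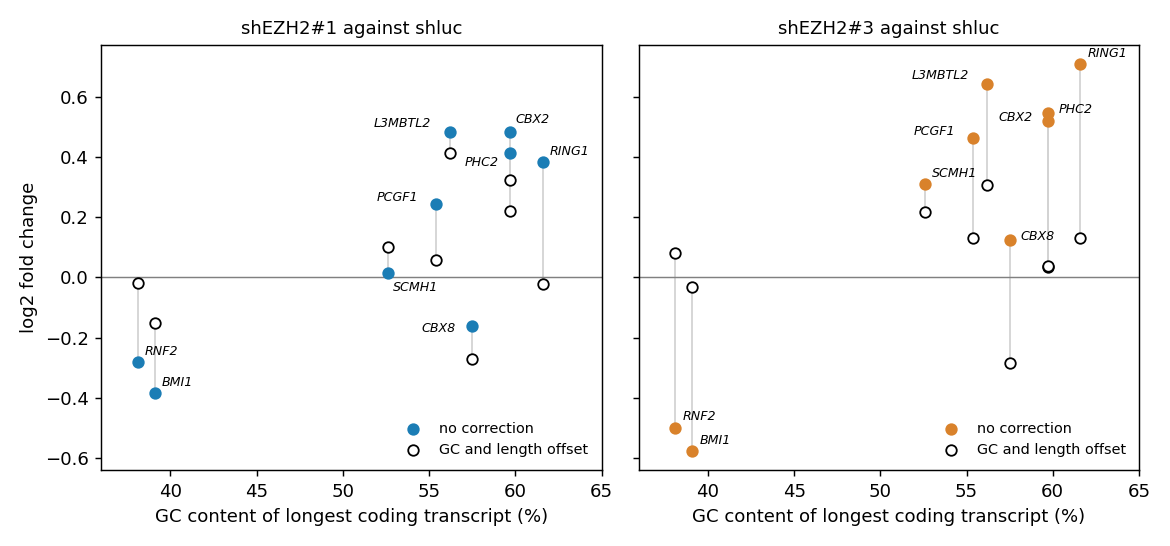
Log2 fold change of each PRC1 subunit against the GC content of its longest coding transcript, for shEZH2#1 (left) and shEZH2#3 (right); filled points are without correction, open points with a GC and length offset, and grey lines join the values of 1 gene. RNF2 and BMI1 sit at the low GC end with negative values that move close to 0, and with shEZH2#3 RING1, CBX2 and PHC2 move from above 0.5 to 0.13 or less.

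Levels were compared between genes as CPM per kilobase of the longest coding transcript, in shluc. RING1 led with 55.5 ± 8.78 (SD, n = 3). PHC2 (27.9 ± 4.09) and L3MBTL2 (27.4 ± 4.19) followed, with overlapping ranges, and then CBX2 (14.0 ± 1.88). CBX8 (6.57 ± 0.46), PCGF1 (5.78 ± 0.65) and SCMH1 (5.33 ± 0.19) formed a chain in which each range overlapped the next. BMI1 (0.864 ± 0.11) and RNF2 (0.473 ± 0.11) were far below and did not overlap in shluc. In both hairpin groups RING1 stayed first and BMI1 and RNF2 last, with BMI1 and RNF2 overlapping in shEZH2#3, while L3MBTL2 and PHC2 changed places, and PCGF1 and CBX8 did, within overlapping ranges. Scaling by all exon bases in place of the longest transcript exchanged PCGF1 and SCMH1 in shluc and also placed L3MBTL2 further below PHC2 (14.0 against 21.7). Level per kilobase rose with GC content over 12949 genes in shluc (Spearman 0.39, across genes, which are not independent replicates), so the order by level is not free of that property.

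Paralogs differed widely in level. RING1 RNA exceeded RNF2 RNA per kilobase 77- to 149-fold in the shluc libraries, 154- to 285-fold in shEZH2#1 and 137- to 407-fold in shEZH2#3. PCGF1 exceeded BMI1 5.11- to 7.76-fold in shluc, 7.56- to 12.4-fold in shEZH2#1 and 12.4- to 15.8-fold in shEZH2#3. The latter ratios leave out the read-through gene COMMD3-BMI1, counted unevenly (0 in shluc replicate 2 and 39.4 in shluc replicate 3). Adding its counts to BMI1 would lower the ratio wherever it was counted. Both ratios set a GC-rich gene against a GC-poor one and carry no GC offset. With the offset, the log2 fold changes with shEZH2#3 were 0.13 for RING1, 0.08 for RNF2, 0.13 for PCGF1 and -0.03 for BMI1. With shEZH2#1 they were -0.02, -0.02, 0.06 and -0.15, in the same order. Paralogs outside the 9, added after their values were seen, were also measured in shluc. Among chromodomain subunits, CBX6 stood at 4.25 CPM per kilobase and CBX7 at 1.53. PHC1 (0.747) and PHC3 (0.940) lay far below PHC2. PCGF3 (2.03) and PCGF5 (1.29) exceeded BMI1, and PCGF6 (0.71), the partner of L3MBTL2, was close to it. Whether the ratios of these low members changed was not tested.

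**Figure D5:**
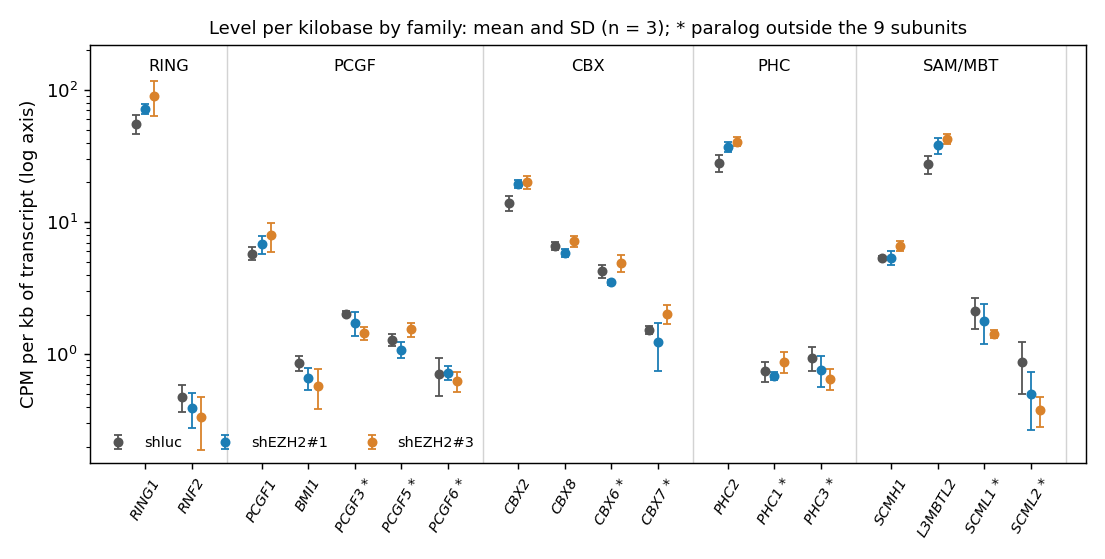
CPM per kilobase of transcript (log axis) in shluc, shEZH2#1 and shEZH2#3 for the PRC1 subunits and, marked with an asterisk, some of their paralogs; points are means and bars SD (n = 3). RING1, PCGF1, CBX2, PHC2 and L3MBTL2 are the highest of the plotted members of their families in all 3 groups, and RNF2 is the scarcest subunit in each.

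The other genes of the pathway were taken from 5 lists chosen with earlier results of these data known. Their counts stand beside the shares over all genes given above, 11.2% higher and 7.89% lower with shEZH2#1, and 24.4% higher and 19.8% lower with shEZH2#3. No test of a list was made, and nothing is particular to a list from its count. Of 7 tested genes of other canonical PRC1 subunits, 0 were called with shEZH2#1 and 1, SCML2, was lower with shEZH2#3, with median log2 fold changes of -0.28 and 0.08. Here and below, genes outside the naming rule are named to show which genes a count holds, a choice made after their values were seen. CBX6 and CBX7 differed between the hairpins, by -0.49 (adjusted p = 0.0267) and -0.70 (adjusted p = 0.0455) in shEZH2#1 relative to shEZH2#3. Without an offset neither was called against shluc. With the GC and length offset both calls between the hairpins were lost (-0.13 and -0.38, adjusted p = 0.373 and 0.309). CBX6 was then called lower against shluc with shEZH2#1 (-0.37, adjusted p = 0.0166), but not with shEZH2#3 (-0.25, adjusted p = 0.0805). Of 24 tested genes of variant PRC1, 0 were higher and 5 lower with shEZH2#1 (SKP1, BCORL1, KDM2B, WDR5 and CSNK2A2). With shEZH2#3, 4 were higher (BCORL1, CSNK2B, FBRS and FBRSL1) and 8 lower (RYBP, MGA, PCGF3, HDAC2, CBX3, USP7, CSNK2A1 and SKP1). Of the lower ones, RYBP (-1.05, adjusted p = 0.00219) and MGA (-1.01, adjusted p = 0.00316) changed most. With the GC and length offset, the 2 still called lower were SKP1 and USP7. The medians without the offset were -0.30 with shEZH2#1 and -0.15 with shEZH2#3. SKP1, a ubiquitin ligase adaptor shared with the PCGF1 complex, fell with both hairpins, by 0.82 (adjusted p = 0.000918) and 0.89 (adjusted p = 0.000148) on the log2 scale, and both calls held with the offset.

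By the naming rule, the 3 genes of the variant PRC1 list with the largest called differences between the hairpins were BCORL1, CSNK2B and KDM2B. BCORL1, a corepressor of the PCGF1 complex, was lower with shEZH2#1 (-0.70, adjusted p = 0.0301) and higher with shEZH2#3 (1.32, adjusted p = 7.03e-05), a difference of -2.02 (adjusted p = 2.42e-06). KDM2B, the CpG-binding subunit of that complex, fell with shEZH2#1 (-0.45, adjusted p = 0.044), and stood at 0.27 with shEZH2#3 (adjusted p = 0.148); the difference was -0.71 (adjusted p = 0.00189). CSNK2B, the regulatory subunit of casein kinase CK2, rose with shEZH2#3 (0.79, adjusted p = 0.000788), with 0.01 in shEZH2#1 and a difference of -0.79 (adjusted p = 0.00144). These 3 differences also passed with the offset. SKP1 did not pass between the hairpins (0.06, adjusted p = 0.788). PCGF1 itself did not differ between the hairpins beyond its error (-0.22, 95% interval -0.62 to 0.19).

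Of 5 tested genes of other MBT proteins and the YY1 complex, 0 were called with shEZH2#1 and 1, YY1, was lower with shEZH2#3 (medians 0.00 and -0.45). Among 14 tested genes of H2A deubiquitination, the reaction opposed to that of RING1 and RNF2, 0 were higher and 2 lower with shEZH2#1 (MBD6 and ASXL1). With shEZH2#3, 4 were higher (MBD6, HCFC1, USP21 and BAP1) and 3 lower (USP16, ASXL2 and KDM1B); the medians were -0.14 and -0.12. MBD6, a partner of the deubiquitinase BAP1, went from -0.86 with shEZH2#1 (adjusted p = 0.00126) to 0.80 with shEZH2#3 (adjusted p = 0.00053), a difference of -1.66 (adjusted p = 8.46e-07). USP16, an H2A deubiquitinase, fell with shEZH2#3 (-1.39, adjusted p = 0.012), with 0.17 in shEZH2#1 and a difference of 1.56 (adjusted p = 0.0115). HCFC1, a cofactor of BAP1, rose with shEZH2#3 (0.46, adjusted p = 0.0236), with -0.15 in shEZH2#1 and a difference of -0.61 (adjusted p = 0.00799). With the offset these 3 differences passed, but the calls with shEZH2#3 were lost for MBD6 (0.20, adjusted p = 0.23), USP16 (-0.83, adjusted p = 0.184) and HCFC1 (0.04, adjusted p = 0.783).

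Of 12 tested PRC2 genes, EZH2 included, 0 were higher and 2 lower with shEZH2#1, and 0 were higher and 5 lower with shEZH2#3 (EZH2, RBBP4, RBBP7, EED and JARID2; medians -0.36 and -0.56). Besides EZH2, RBBP4, a histone-binding subunit, was lower under shEZH2#1 (-0.60, adjusted p = 0.00766) as well as under shEZH2#3 (-0.61, adjusted p = 0.00265), although with the offset the latter was -0.08 (adjusted p = 0.595). EED, the subunit that binds H3K27me3, fell with shEZH2#3 (-0.85, adjusted p = 0.00352), and its difference between the 2 hairpins was 0.60 (adjusted p = 0.0463); with the offset that difference did not pass (0.47, adjusted p = 0.0748). With the GC and length offset, the counts with shEZH2#1 were 2 lower for other canonical PRC1, 6 lower for variant PRC1, 0 for the MBT and YY1 list, 1 higher and 3 lower for H2A deubiquitination, and 2 lower for PRC2. With shEZH2#3 they were 1 lower (not SCML2, whose call was lost), 4 higher and 2 lower, 0 (the call of YY1 was lost), 0, and 4 lower. Between the hairpins, shEZH2#1 minus shEZH2#3, 0 of the canonical list were called with the offset (2 lower without it), 6 lower of variant PRC1 (9 lower), 1 higher of the MBT and YY1 list (0), 1 higher and 3 lower of deubiquitination (1 and 4), and 1 lower of PRC2 (1 higher).

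Over the 9 libraries, the gene with a pattern most like L3MBTL2, by Pearson correlation of log2 CPM among 8057 genes with a mean of at least 5 CPM, was CDIP1 (r = 0.993), followed by BOK and SLC29A2 (both 0.985). For BMI1, the member with the most negative mean fold change, they were NADK2 (0.954), NOP58 (0.949) and PCM1 (0.948). Among the members themselves, the 6 pairs formed by RING1, CBX2, PHC2 and L3MBTL2 had r of 0.58 to 0.95, the highest for CBX2 with PHC2, while BMI1 and CBX2 had -0.83. These are descriptions over 9 points that share groups and library composition.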

How the data were processed

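Per the labels' protocols, polyadenylated RNA was made into dUTP-stranded libraries. The submitters' processing notes name fastp, HISAT2, StringTie and GRCh38 (hg38); counting, annotation, strand setting and the handling of multimapping were not given in the sources used here. Values as deposited are estimated counts of Ensembl genes, not normalized; the table of the series equalled the single-library files for all 57905 genes. Symbols came from a naming table (51996 genes) or GENCODE 29 (342); 5567 had none, including 2 abundant genes with 5.97 to 22.6% of a library's counts. Lengths, GC content and positions are those of GENCODE 29.

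Counts were rounded and fitted over all 9 libraries, 1 mean per group, with edgeR 4.0.16 (R 4.3.3): TMM scaling, filterByExpr, quasi-likelihood test, Benjamini-Hochberg over 13252 genes, threshold 0.05. CPM use TMM-scaled totals. The SE is the unshrunk log2 fold change divided by the square root of F. Alternatives were DESeq2 1.42.0, limma-voom 3.58.1, scaling by RLE or upper quartile, no or stricter filter (1 CPM in 3 libraries), only the groups compared, a replicate block, a GC and length offset (loess span 0.3), a minimum fold of 1.5, no abundant unnamed genes, and each library left out. The tests were checked on simulated counts. Some items are not reported here. The members and lists were chosen with earlier results of these data known. Other genes were named where called in both hairpins in 1 direction (at most 4 per list) or between hairpins (at most 3), and the 3 likest genes for the members of highest and lowest mean change.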

Additional observations from a re-analysis of the deposited data

How the results depend on the processing

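The count of members called with shEZH2#1, 2 of 9, fell to 0 with no filter, with the replicate number as a block and with a minimum fold of 1.5, and to 1 without shluc replicate 2 and shEZH2#3 replicate 1. It ranged from 0 to 2 when each library was left out in turn: 0 without shluc replicate 2, shEZH2#1 replicate 2 or shEZH2#1 replicate 3, and 1 without shluc replicate 3. The count with shEZH2#3, 4 of 9, was 0 with the GC and length offset, 0 with the replicate block and that offset, and 2 with the minimum fold. For the mean of both hairpins, 4 of 9, the same settings gave 1, 1 and 0. Between the hairpins, 0 of 9 became 1 with the offset, with and without the replicate block, because CBX2 reversed to 0.29. Over all genes, the 5861 calls with shEZH2#3 became 3325 with the offset and 3098 with the block and offset. The 4804 of the mean became 2535, 2367 and, with the minimum fold, 2751. Leaving out 1 library gave 1159 to 3063 calls with shEZH2#1 (2523 with all; 1550 without shluc replicate 2, 1344 without shEZH2#1 replicate 2, 1159 without shEZH2#1 replicate 3), 4251 to 5823 with shEZH2#3, 2649 (without shluc replicate 2) to 4905 for the mean and 1956 (without shEZH2#1 replicate 1) to 3941 between the hairpins (3311 with all; 4191 without shluc replicate 2 and shEZH2#3 replicate 1). Of 819 fold changes of members under an alternative, 774 kept their side of the threshold, 38 lost a call, 5 gained one and 2 reversed. Most of the 819 belong to estimates not called in the main fit, which had no call to lose. For the called estimates, losses ran from 1 of 22 alternatives (L3MBTL2, mean of both hairpins) to 7 of 23 (CBX2 and L3MBTL2, each with shEZH2#1). The cause of these changes was not tested.

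Replicate numbers did not pair the samples: same-numbered libraries of different groups correlated at -0.12 to 0.08 in their deviations. The fit of only the groups compared gives no value for the mean of both hairpins. The split of calls between higher and lower under upper quartile scaling was 43.4% higher for the mean (54.1% under TMM) and 61.1% between the hairpins (37.9%). Depth limits RNF2 and BMI1 most, with 12 to 54 and 24 to 85 counts per library.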
